A study of Mus musculus with 23 samples.

Results

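Of 21755 protein-coding transcription start sites (TSS) on chromosomes 1 to 19 and X, 897 carried an H3K27ac peak at E15.5 and at neither earlier stage in Ebf2-EGFP+ cells of the mouse cerebral cortex. These sites, called E15.5-only TSS here, were defined by 3 deposited peak lists: a peak of the E15.5 H3K27ac list lay within 5 kb of the TSS, and none of the E11.5 or E13.5 lists did. The TSS was the 5′ end of the gene in GENCODE M21. The 897 TSS made up 4.12% of all TSS (95% CI 3.87 to 4.40) and 7.82% of the 11467 TSS with H3K27ac at E15.5. The number depends on the rule: it was 2288 with the earlier lists held to their widest 25793 peaks, 547 with earlier peaks barred within 10 kb, and 486 with E15.5 peaks of at least 300 bp. The H3K27ac of Ebf2-EGFP+ cells chose these sites and is given as a description only.

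The cells came from cerebral cortex of embryos of the strain Tg(Ebf2-EGFP)FB58Gsat, in which EGFP follows regulatory sequence of Ebf2, and every group carried this transgene. ChIP-seq for H3K27ac and H3K27me3 was made in sorted Ebf2-EGFP+ cells of the 3 stages, while Ebf2-EGFP- cells were taken at E11.5 alone. The study describes the Ebf2-EGFP- cells as largely progenitors and the youngest Ebf2-EGFP+ cells as preplate neurons, a mix of subplate and Cajal-Retzius (CR) neurons of which CR neurons make up most by E15.5. One peak list was deposited per mark and cell group, 8 in all, and each group has 2 ChIP libraries except H3K27ac in Ebf2-EGFP- cells, which has 1. The depth is unknown and the lists have no replicates, so no test between stages was possible. The lists differ in length, with 37055, 102881 and 25793 H3K27ac peaks in Ebf2-EGFP+ cells from the earliest to the latest stage, and list length cannot be told apart from stage. Confidence intervals (CI) are Wilson 95% intervals and cover counting over TSS only. TSS near each other share peaks, so the true error is larger.

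H3K27ac is the acetylation of lysine 27 of histone H3, a mark of active promoters and enhancers. H3K27me3 is the trimethylation of the same lysine by Polycomb repressive complex, found at silent genes. The 2 marks exclude each other on a single histone tail. CR neurons are among the first neurons of the cortex, settle in its outermost layer, and secrete Reelin, which guides the layering of later neurons.

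The DNA at several of these TSS shows the range of promoters in the set. Sequences are from the RefSeq copy of GRCm38 (mm10), and capitals mark matches, on either strand, to 8 short motifs: the GC box GGGCGG, the ETS site CCGGAAG, the NRF1 site GCGCATGC, the YY1 site AAGATGGCG, the CCAAT box, the cAMP response element TGACGTCA, the TATA box TATAAA, and the core CCCNNGGG bound by EBF factors. Matches to the GC box can overlap those of the other GC-rich motifs. The 150 bases upstream of the TSS are shown for synaptic genes (Snap25, Syn1 and Grin2b), for the CR gene Cxcr4, for the 3 Brinp genes, which are all E15.5-only, and for the olfactory receptor gene Olfr533. They lie, in that order, at chr2:136713303-136713452 (+), chrX:20921005-20921154 (-), chr6:136173512-136173661 (-), chr1:128592294-128592443 (-), chr4:68954398-68954547 (-), chr1:158356327-158356476 (-), chr1:146494610-146494759 (+) and chr7:140463220-140463369 (+), each read on the strand of its gene.
Snap25: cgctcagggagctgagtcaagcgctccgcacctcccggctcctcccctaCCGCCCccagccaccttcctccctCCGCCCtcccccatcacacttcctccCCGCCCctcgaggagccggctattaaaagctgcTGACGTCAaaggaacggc
Syn1: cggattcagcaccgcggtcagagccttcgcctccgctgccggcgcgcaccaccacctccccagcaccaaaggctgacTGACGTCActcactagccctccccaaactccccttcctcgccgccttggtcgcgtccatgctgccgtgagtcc
Grin2b: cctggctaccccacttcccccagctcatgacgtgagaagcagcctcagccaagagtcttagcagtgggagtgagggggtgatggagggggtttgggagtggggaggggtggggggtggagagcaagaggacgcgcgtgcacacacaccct
Cxcr4: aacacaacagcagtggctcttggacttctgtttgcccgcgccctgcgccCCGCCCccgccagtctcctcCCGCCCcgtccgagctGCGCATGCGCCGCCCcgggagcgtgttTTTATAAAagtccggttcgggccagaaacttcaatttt
Brinp1: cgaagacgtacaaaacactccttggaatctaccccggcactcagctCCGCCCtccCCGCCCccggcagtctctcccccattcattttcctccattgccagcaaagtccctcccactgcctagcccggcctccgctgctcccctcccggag
Brinp2: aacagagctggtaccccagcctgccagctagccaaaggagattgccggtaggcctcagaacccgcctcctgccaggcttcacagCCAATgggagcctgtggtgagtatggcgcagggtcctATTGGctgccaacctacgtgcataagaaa
Brinp3: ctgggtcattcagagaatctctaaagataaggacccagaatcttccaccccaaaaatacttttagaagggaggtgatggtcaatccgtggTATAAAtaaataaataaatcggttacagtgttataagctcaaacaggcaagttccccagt
Olfr533: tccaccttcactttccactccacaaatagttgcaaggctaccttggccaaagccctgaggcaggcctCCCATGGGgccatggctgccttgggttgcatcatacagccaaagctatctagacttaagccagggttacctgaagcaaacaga

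Snap25 and Syn1 each had a match to the cAMP response element, Cxcr4 had 3 GC boxes, overlapping NRF1 matches and a TATA box, and Grin2b had no match. Brinp1 and Brinp2 differed in their matches, with GC boxes in Brinp1 and CCAAT boxes in Brinp2. Brinp3 was low in GC (39.3%, against 58.7% and 64.0% in Brinp2 and Brinp1), and the bases of Olfr533 held 0 CpG dinucleotides and 1 EBF core match. A second kind of promoter lies between genes that run apart from each other. Whole intervals between such divergent starts are shown for the 3 pairs with the widest shared E15.5 peak among intervals of up to 300 bp that no annotated exon enters. They lie at chr4:62408643-62408796, chr5:138280006-138280239 and chr17:6079742-6079785, and all are read on the + strand.
Cdc26-Prpf4: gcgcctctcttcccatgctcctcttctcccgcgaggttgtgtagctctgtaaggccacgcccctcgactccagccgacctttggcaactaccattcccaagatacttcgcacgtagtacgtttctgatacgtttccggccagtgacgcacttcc
Gpc2-Stag3: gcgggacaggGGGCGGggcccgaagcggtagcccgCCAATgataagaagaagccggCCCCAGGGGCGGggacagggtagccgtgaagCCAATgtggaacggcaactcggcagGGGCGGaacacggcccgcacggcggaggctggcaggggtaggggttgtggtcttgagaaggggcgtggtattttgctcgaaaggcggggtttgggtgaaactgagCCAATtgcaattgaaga
Serac1-Gtf2h5: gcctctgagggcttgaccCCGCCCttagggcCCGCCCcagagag

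Cdc26, a subunit of the anaphase-promoting complex, and Prpf4, a splicing factor, shared a peak of 933 bp, and no motif matched between their starts. Gpc2, a heparan sulfate proteoglycan of developing neurons, and Stag3, a meiotic cohesin subunit, shared a peak of 833 bp over 234 bases with 3 GC boxes. Those bases also held 3 CCAAT boxes and 2 overlapping EBF core matches. Serac1 and Gtf2h5, a subunit of the repair and transcription factor TFIIH, had 44 bases between their starts under a peak of 842 bp. In all, 91 E15.5-only TSS (10.1%) had a divergent protein-coding start within 1 kb, against 6.84% of all TSS and 11.7% of the 7262 TSS acetylated at all 3 stages. At each of the 91 a divergent partner was E15.5-only too, since partners this close mostly meet the same peaks.

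Over all 897, the sequence around the TSS lay between that of constantly acetylated and of unmarked promoters. Within 500 bp on each side, the median GC content was 53.5%, against 61.3% at TSS acetylated at all 3 stages, 43.8% at TSS acetylated at no stage and 54.8% over all TSS. The ratio of observed to expected CpG had a median of 0.631, and 498 of the TSS (55.5%) reached 0.6, a usual mark of a CpG island. Over all TSS 46.3% did, at TSS acetylated at E13.5 and E15.5 58.3%, at all 3 stages 80.0%, and at E11.5 only 25.4%. The 172 E15.5-only TSS whose nearest E15.5 peak lay over 1 kb away reached it in 8.14%, and the other 725 in 66.8%.

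From 250 bases before to 50 after the TSS, ETS matches were found in 17.9% of E15.5-only promoters (CI 15.6 to 20.6). All promoters had 10.9% and those acetylated at all 3 stages 15.8%. Promoters acetylated at E11.5 and E15.5 had more (20.6%), and those acetylated at E13.5 and E15.5 had 16.5%. The cAMP response element was found in 4.46% (40 promoters, CI 3.29 to 6.02), against 2.45% of all promoters and 3.54% at all 3 stages. It was in 3.35% at E11.5 and E15.5 and in 2.69% at E13.5 and E15.5. In the order E15.5-only, all and all 3 stages, the GC box was in 48.5%, 43.4% and 65.1%. The EBF core, of the factor family of Ebf2 itself, was in 15.9% of all promoters and 19.6% of those acetylated at all 3 stages. Its interval for E15.5-only promoters was 11.4 to 15.9%. NRF1 matches were in 4.01%, 3.40% and 5.62%, YY1 matches in 2.23%, 1.70% and 2.92%, the CCAAT box in 39.9%, 38.9% and 37.1%, and TATAAA in 10.1%, 12.7% and 6.11%. A match is only a string of letters, and none of these values was tested.

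The E15.5 peaks at these TSS were narrower than at TSS that also had H3K27ac at E11.5, and close in width to those at TSS that also had it at E13.5 but not at E11.5. The widest peak within 5 kb had a median of 324 bp (quartiles 233 and 497 bp, range 184 to 1247 bp), against 694 bp at TSS acetylated at all 3 stages, 592 bp at TSS acetylated at E11.5 and E15.5, and 361 bp (quartiles 246 and 524 bp) at the 1787 TSS acetylated at E13.5 and E15.5. At 60 TSS it was 184 bp, the smallest width in the list, and at 13 it reached 1 kb. A single peak lay within 5 kb of 815 TSS, 2 peaks of 79 and 3 peaks of 3 (Jup, Ttc7 and Cxcr4). Some neighbours rest on the same peak: 184 TSS fell into 89 groups that shared their peaks, which left 802 separate loci.

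Most peaks sat at the start of the gene, as in the other groups with H3K27ac at E15.5. The peak covered the TSS at 320 of the 897 (35.7%), lay 1 to 250 bp away at 301, more than 250 bp but at most 1 kb away at 104 and farther at 172 (19.2%, CI 16.7 to 21.9). In the other groups the peak covered the TSS at 34.6% (E13.5 and E15.5), 57% (E11.5 and E15.5) and 58.2% (all 3 stages), and it lay within 1 kb at 79.3%, 94% and 89.9%, against 80.8% here. Peaks over the TSS were wider (median 462 bp) than those over 1 kb away (median 237 bp). The centre of the widest peak lay upstream of the gene at 208 TSS, in a non-coding part of an exon at 273, in a coding exon at 143, in an intron at 260 and beyond the far end of a short gene at 13. The plot of width against position shows both features.

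**Figure D1:**
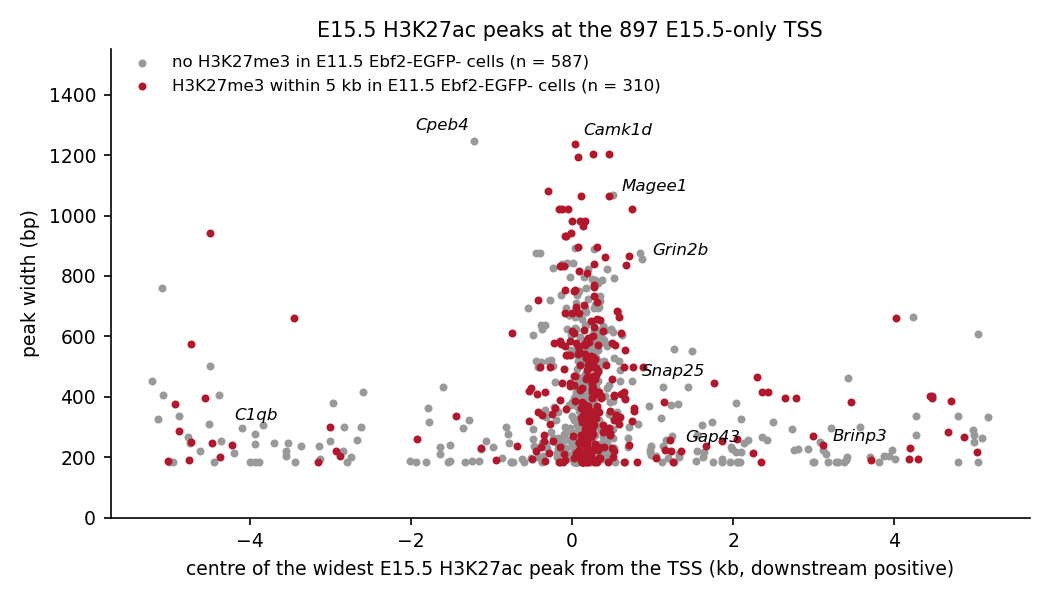
Width of the widest E15.5 H3K27ac peak (bp) against the distance of its centre from the TSS (kb, downstream positive), 1 point per E15.5-only TSS. Points in red (310) had H3K27me3 within 5 kb in Ebf2-EGFP- cells and points in grey (587) had not. Wide peaks crowd around the TSS, with a few as far as 5 kb.

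The widest peaks belonged to genes of several kinds. Cpeb4, which controls translation through the poly(A) tail, had 1247 bp, ending 593 bp upstream of its TSS (chromosome 11, 31872211 to 31935634). Camk1d, a calcium-dependent kinase, had 1238 bp over its TSS (chromosome 2, 5293457 to 5714515). The peak of Tceanc2, shared with Tmem59, was 1202 bp, and that of Sez6l, a membrane protein of neurons related to a seizure gene, 1192 bp. Peaks of 1080 bp at the primase subunit Prim2, of 1068 bp at Magee1 and of 1064 bp shared by protein kinase C alpha (Prkca) and Apoh followed. Of these genes Magee1 lies on the X chromosome, as do Rab33a, a Golgi GTPase (965 bp), and Armcx2 (877 bp).

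Others in the top 20 were Gm28051, which shares its peak with Gon7 and Ubr7 (1023 bp), Glt8d1 (983 bp), the ribonuclease P subunit Pop7 (981 bp), Fam160a2 (943 bp), Cdc26 (933 bp), the sphingolipid regulator Ormdl3 (896 bp) and Spsb1 (896 bp). Mapk8ip1, a scaffold of the JNK pathway carried along axons (892 bp), the fucosyltransferase Fut9 (889 bp), the electron transfer flavoprotein Etfb (876 bp) and the neuronal amino acid transporter Slc6a15 (865 bp) completed it. No E11.5 or E13.5 H3K27ac peak came nearer to Slc6a15 than 151 kb, while Etfb had an E13.5 peak at 6.09 kb and Spsb1 an E11.5 peak at 5.37 kb. Wide E15.5 peaks thus occurred both far from any earlier peak and just beyond the 5 kb limit.

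H3K27me3 was not used to choose the sites, and few of them had it in Ebf2-EGFP+ cells. At E11.5 21 of 897 TSS had an H3K27me3 peak within 5 kb (2.34%, CI 1.54 to 3.55), against 4.96% of all TSS. At E13.5 it was 35 (3.90%, CI 2.82 to 5.38), against 9.39%. At E15.5, the stage at which H3K27ac was present, it was 5 (0.557%, CI 0.238 to 1.30), against 1.07%. In E11.5 Ebf2-EGFP- cells 310 TSS had the mark (34.6%, CI 31.5 to 37.7), against 48.6%. The share was below that of all TSS in each of the 4 lists, and at E15.5 its interval held the value of all TSS. The E11.5 and E13.5 differences shrank under some other rules. With a 1 kb window for H3K27ac the shares were 4.49% in E11.5 Ebf2-EGFP+ cells and 45.4% in Ebf2-EGFP- cells. With the earlier H3K27ac lists held to the length of the E15.5 list they were 3.98% and 43.6%. In E13.5 Ebf2-EGFP+ cells the share was 6.58% and 6.77% under these rules. With earlier peaks barred within 10 kb the shares were lower instead, 1.65% and 2.74% in Ebf2-EGFP+ cells at E11.5 and E13.5 and 32.7% in Ebf2-EGFP- cells. The total of peaks differs as widely between the H3K27me3 lists, with 48963 in Ebf2-EGFP- cells and 6387, 6721 and 1438 in Ebf2-EGFP+ cells by stage, so shares are compared here within a list.

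**Figure D2:**
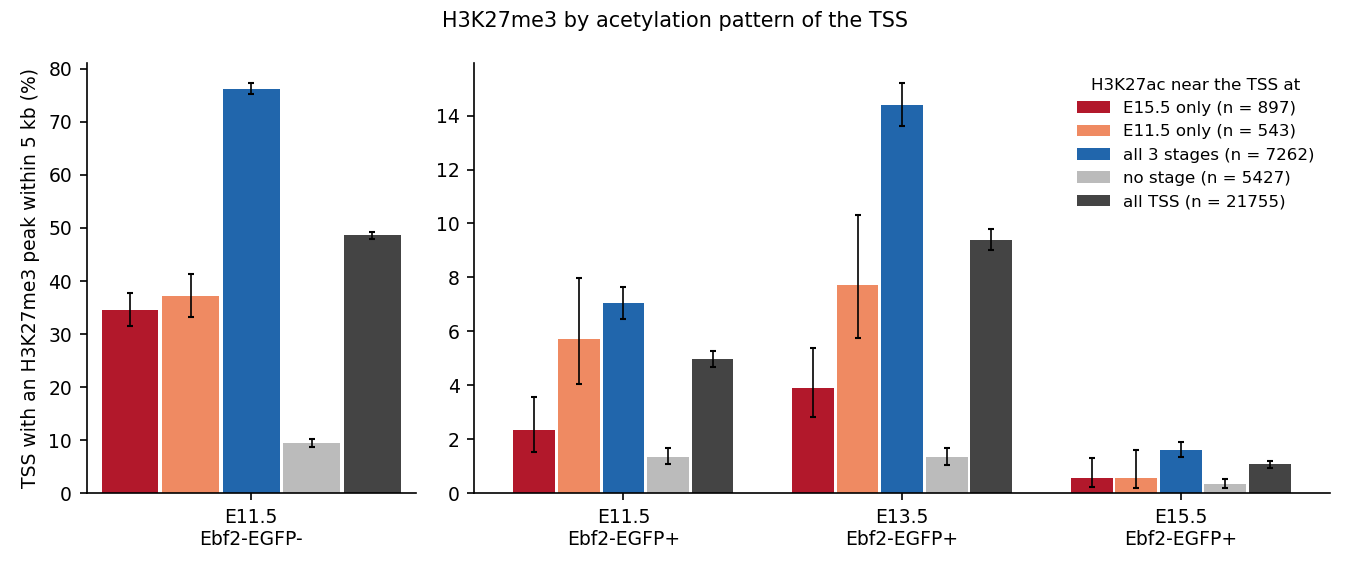
Share of TSS (%) with an H3K27me3 peak within 5 kb in each of the 4 H3K27me3 lists, for TSS grouped by the stages at which Ebf2-EGFP+ cells had H3K27ac; the left panel has its own scale. Bars are shares and error bars Wilson 95% intervals. E15.5-only TSS lie below TSS acetylated at all 3 stages in every list.

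Among TSS acetylated at all 3 stages, 76.3% had H3K27me3 in Ebf2-EGFP- cells and 7.04%, 14.4% and 1.6% in Ebf2-EGFP+ cells by stage. The 1521 TSS acetylated at E11.5 and E15.5 were close to the E15.5-only TSS in Ebf2-EGFP+ cells, with 2.63%, 3.55% and 0.986% by stage, all inside the E15.5-only intervals, and had 56% in Ebf2-EGFP- cells. Those acetylated at E13.5 and E15.5 had 4.81%, 12.1% and 1.62% by stage, and 56.7% in Ebf2-EGFP- cells. The TSS acetylated at E11.5 only, which number 543, had 37.2% in Ebf2-EGFP- cells (CI 33.2 to 41.3), and that interval overlaps the one of E15.5-only TSS. In Ebf2-EGFP+ cells they had 5.71% at E11.5 (CI 4.05 to 7.99) and 7.73% at E13.5 (CI 5.77 to 10.3), both above the intervals of E15.5-only TSS, and 0.552% at E15.5. The 5427 TSS acetylated at no stage had 9.53%, 1.35%, 1.33% and 0.332% in the 4 lists. At 542 of the E15.5-only TSS H3K27me3 was in no list. The like count over all TSS is not given, so this number is no trait of the set by itself.

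H3K27me3 was also compared at like CpG content, which moves with it. Where the CpG ratio was between 0.4 and 0.8, the Ebf2-EGFP- cells carried the mark at 38.2% of 560 E15.5-only TSS (CI 34.3 to 42.3), against 73.2% of TSS acetylated at all 3 stages and 58.7% of all TSS. Below 0.4 the shares were 20.5%, 73.9% and 24.8%, and from 0.8 up 42.6%, 80.2% and 74.7%. The width of the E15.5 peak moved with it too. Of the 486 TSS with a peak of at least 300 bp 40.9% had this H3K27me3, and of the 411 with a narrower one 27%.

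The widest E15.5 peak overlapped an H3K27me3 peak of Ebf2-EGFP- cells at 219 TSS, which is 70.6% of the 310 and 24.4% of all 897. At TSS acetylated at all 3 stages it did so at 60.7% of all. The widest H3K27me3 peaks of these cells within 5 kb were at Sgpp1, a sphingosine phosphate phosphatase (694 bp), Camk1d (693 bp), the deubiquitinase Mindy3 (657 bp), Kitl, the ligand of the receptor Kit (647 bp) and Pgpep1 (570 bp). Kpna6, an importin (557 bp), Slc36a1 (543 bp), Ltbp4 (512 bp) and Tbc1d31 (512 bp) followed. Of these genes Ltbp4 alone had an H3K27me3 peak in Ebf2-EGFP+ cells, and 296 of the 310 TSS had none there. The Ebf2-EGFP+ lists are short, and the longest reach was 9.39% of all TSS, at E13.5.

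In Ebf2-EGFP+ cells 59 E15.5-only TSS had an H3K27me3 peak at any stage, 2 of them at more than 1 stage and 0 at all 3. Over all TSS the mark was at 4.96%, 9.39% and 1.07% by stage, and the share at any stage is not given. The H3K27me3 peaks at E15.5-only TSS were near the smallest widths of their lists, with medians of 136, 146 and 119 bp by stage. The smallest were 116, 116 and 118 bp. Over all TSS with such a peak the medians were 159, 158 and 142 bp, so narrow peaks are a trait of these lists too. Oprk1, the kappa opioid receptor (chromosome 1, 5588466 to 5606131), had H3K27me3 peaks of 116 bp at E11.5 and 239 bp at E13.5, and an H3K27ac peak of 253 bp over its TSS at E15.5. Tcstv3 had H3K27me3 of 140 bp at E13.5 and 165 bp at E15.5, at 4592 and 4589 bp from its TSS.

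At E11.5 the widest were 246 bp at Nudt13 and, predicted genes left out, 181 bp at the lymphocyte receptor gene Cd244a. The estrogen receptor beta gene Esr2 (169 bp) and Mrps31 (159 bp) followed. At Cd244a the peak covered the TSS, as did one of 147 bp at Sirt1, a deacetylase picked after its values were seen, which shares its E15.5 peak with Dnajc12.

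At E13.5 the widest were 244 bp at Lyzl6, 239 bp at Oprk1, and 233 bp shared by Gbf1 and the dopaminergic transcription factor gene Pitx3. Tnfaip3, an inhibitor of NF-kappaB signalling, had 222 bp, the integrin gene Itgal 217 bp, the efflux pump gene Abcc1 214 bp, Ltbp4 192 bp and Mroh1 177 bp. Cmtm1 and Gm45711 shared 170 bp, and Xab2 and Pet100 159 bp. The peak covered the TSS of Gbf1 and lay 1 bp from that of Abcc1. Of genes picked after their values were seen, it covered the TSS of Tomm20l and lay 21 bp away at the potassium channel gene Kcnh7.

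Both marks were within 5 kb at E15.5 at 5 TSS: Mapk8ip1 (118 bp), Vamp9 (118 bp), Eid2b (119 bp), Nr2c2ap (124 bp) and Tcstv3 (165 bp). At the other 892 H3K27ac was the only 1 of the 2 marks at that stage. In E11.5 Ebf2-EGFP- cells H3K27ac itself was at 8 of the TSS (0.892%, CI 0.453 to 1.75), against 4.2% of all TSS. That list is from 1 library and holds only 1386 peaks, so absence from it says little. Shares were also low at TSS acetylated at E11.5 only (0.552%), at E13.5 only (0.409%) and at E13.5 and E15.5 (1.34%). They were 6.57% at E11.5 and E15.5 and 10.2% at all 3 stages. The 8 TSS were those of Msc, Wars2, Nub1, Pik3r4, Zpbp2, Sh3pxd2a and the pair Xrcc4 and Tmem167, with peaks of 157 to 230 bp.

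Genes were then grouped by 22 lists, 11 of cell type markers and 11 of gene function, and by 22 families read from gene symbols. Under the background of 4.12%, the CI of the share lay above it for 5 of the 44, below it for 3 and around it for 36. No test was made, and 14 of the groups held 0 E15.5-only TSS. The share also depends on how many genes of a group had H3K27ac at E15.5 at all. Among TSS with it, 7.82% were E15.5-only. For the 5 groups above the background this share was 20.8% (DNA repair), 16.7% (potassium channels), 14.3% (mitochondrial ribosomal proteins), 13.2% (Zfp genes) and 10.2% (respiratory chain). These shares have no intervals.

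The 10 E15.5-only genes among 58 Fanconi and DNA repair genes gave the highest share (17.2%, CI 9.64 to 28.9). They were the checkpoint kinase Atr (718 bp), the mismatch repair gene Pms1 (538 bp), Xrcc4 of end joining (499 bp), Brca2 of homologous recombination (396 bp), the Fanconi ligase Fancl (374 bp), Xrcc2 (356 bp), the TFIIH helicase Ercc3 (342 bp) and Rad51c (300 bp), with Xrcc5 and Xrcc6, the subunits of Ku, at 211 and 191 bp. The peak lay within 1 kb at 8 of them, at 1044 bp from Fancl and at 3618 bp from Xrcc6. Pms1 shares its peak with Ormdl1 and Rad51c with Tex14, so such peaks cannot be assigned to the repair gene alone. In the whole list 36, 37 and 48 genes had H3K27ac by stage, and 4 of the 10 had H3K27me3 in Ebf2-EGFP- cells and 0 in Ebf2-EGFP+ cells.

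Mitochondrial genes were the next, and some of their peaks are shared with a neighbour. Mrpl30 shares its peak with Mitd1, Mrpl10 with Lrrc46 and Ndufa5 with Asb15. Among mitochondrial ribosomal proteins 10 of 78 were E15.5-only (12.8%, CI 7.12 to 22.0), from Mrpl9 (603 bp) to Mrps18a (199 bp), all with a peak within 1 kb. Among genes with symbols of respiratory chain subunits, which include the assembly factor Ndufaf1, it was 9 of 98 (9.18%, CI 4.91 to 16.5), and they included Cox5b (682 bp), Ndufb11 (625 bp), Ndufa5 (611 bp) and Atp5mpl (575 bp). The zinc finger genes named Zfp had 36 of 394 (9.14%, CI 6.67 to 12.4), led by Zfp426 (838 bp), Zfp444 (792 bp) and Zfp26 (703 bp). Of these 36, 10 had H3K27me3 in Ebf2-EGFP- cells and 0 at any stage of Ebf2-EGFP+ cells.

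Potassium channels had 8 of 94 (8.51%, CI 4.38 to 15.9). They were Kcna2, Kcna10, Kcnh7, Kcnj6, Kcnk15, Kcnma1, Kcnn2 and Kcnt2, and each had its E15.5 peak within 1 kb. Kcnh7 had a peak of 544 bp over its TSS, with earlier H3K27ac no nearer than 51.9 kb at E11.5 and 190 kb at E13.5, and its H3K27me3 at E13.5 was 119 bp wide. Other groups of neuronal function had intervals around the background.

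Presynaptic genes had 3 of 45 E15.5-only (6.67%, CI 2.29 to 17.9), and 35 of the 45 had H3K27ac at E15.5. Bassoon (Bsn), a scaffold of the release site, had a peak of 572 bp over its TSS (chromosome 9, 108096022 to 108190384), and its nearest earlier peak was 6.30 kb away at E13.5. Synapsin I (Syn1), which tethers vesicles, had 572 bp at 22 bp from its TSS (chromosome X, 20860511 to 20921004). The SNARE protein gene Snap25 (chromosome 2, 136713453 to 136782428) had 2 peaks, the nearest 7 bp from the TSS and the widest of 454 bp. The earlier peaks nearest to Syn1 and Snap25 were both of E13.5, at 8.6 and 8.7 kb. Of the 3 genes only Bsn had H3K27me3 nearby, of 196 bp in Ebf2-EGFP- cells.

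Glutamate, GABA and glycine receptors had 4 of 50 (8%, CI 3.15 to 18.8), of which 3 are described here. The NMDA receptor subunit Grin2b had a peak of 855 bp, centred in an intron, 442 bp from the TSS (chromosome 6, 135713233 to 136173511). The AMPA receptor subunit Gria4 had 501 bp and the metabotropic receptor Grm8 393 bp. The nearest earlier H3K27ac was 24.1 kb away for Gria4, 35.4 kb for Grm8 and 46.0 kb for Grin2b, in each case at E13.5. Grm8 had H3K27me3 of 192 bp in Ebf2-EGFP- cells, and the 3 genes had none in Ebf2-EGFP+ cells.

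Of 65 receptors for amines, acetylcholine and peptides 3 were E15.5-only, Oprk1 and the nicotinic subunits Chrna7 (658 bp) and Chrna5 (326 bp). Synaptic adhesion and scaffold genes had 3 of 42, Ptprd (586 bp), Slitrk3 (530 bp) and Slitrk4 (384 bp), and for Ptprd the nearest earlier peak was 80.6 kb away. The calcium channel gene Cacna1f, with a peak of 184 bp over 3 kb from its TSS, was the only 1 of 32 sodium and calcium channels. Among 24 activity-induced genes 0 were E15.5-only (at most 13.8% by the interval), and 19, 23 and 21 had H3K27ac by stage.

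The share for markers of CR neurons was 2 of 22 (9.09%, CI 2.53 to 27.8). Cxcr4, the receptor that holds CR neurons in the outer layer (chromosome 1, 128588199 to 128592293), had 3 peaks of up to 363 bp, and the nearest earlier peak was 37.0 kb away. Brinp1 (chromosome 4, 68761514 to 68954397) had 1 peak of 224 bp. The paper counts Brinp1 among its CR-specific genes, whose RNA was higher in Ebf2-EGFP+ than in Ebf2-EGFP- cells at all 3 stages. Absence of an earlier peak thus does not mean absence of earlier RNA. Cxcr4 and Brinp1 had H3K27me3 in Ebf2-EGFP- cells, of 133 and 167 bp, and none in Ebf2-EGFP+ cells. Of the 22 markers 17 had H3K27ac at each of the stages, 12 of them at all 3.

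Markers of other cells that a sort of cortex could carry were counted in the same way. Pericyte and smooth muscle, meningeal, erythroid, glial, GABAergic, cortical plate and progenitor markers had 0 each, of 13 to 20 genes. Microglia and macrophage markers had 2 of 22 (9.09%, CI 2.53 to 27.8), C1qb (277 bp) and Cx3cr1 (201 bp), which is the share of the CR markers. Choroid plexus and hem markers had 1 of 15 (6.67%, CI 1.19 to 29.8), Folr1 (218 bp), and endothelial markers 1 of 20 (5%, CI 0.888 to 23.6), Erg (184 bp). Of the markers with H3K27ac at E15.5, 28.6% of the microglial ones and 11.8% of the CR ones were E15.5-only. The peaks of C1qb, Cx3cr1 and Folr1 lay 3792, 3601 and 1528 bp from their TSS. In the E15.5 list 7 of the 22 microglia markers and 5 of the 20 endothelial markers had H3K27ac, against 15 and 14 in the E13.5 list. The part of such cells in the E15.5-only set was not tested.

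All 3 genes of the Brinp family were E15.5-only. This family, named for bone morphogenetic protein and retinoic acid inducible neural proteins, was singled out after its values were seen. Brinp2 (chromosome 1, 158245269 to 158356326) had 498 bp over its TSS, with earlier peaks at 6.26 kb at E11.5 and 6.35 kb at E13.5. An E13.5 peak lay within 5 kb of another annotated start of Brinp2, so that start was not acetylated at E15.5 only. Brinp3 (chromosome 1, 146494760 to 146902472) had 212 bp in an intron, 3048 bp from the 5′ end, and its nearest earlier peak was 33.0 kb away. Brinp1 had the nearest earlier peak at 11.2 kb. With 3 genes and a choice made on the values, no share is meaningful.

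Other neuronal genes, also picked after their values were seen, were the growth cone gene Gap43 (210 bp, 1229 bp from the TSS), the proteolipid genes Gpm6a (206 bp) and Gpm6b (650 bp), the adhesion genes Cntn1 (395 bp), Ntm (199 bp) and Cd200 (484 bp), and the secretory pathway genes Pcsk2 (358 bp), Pcsk1n (249 bp) and Scg5 (239 bp). For Gap43 the nearest earlier peaks were 150 kb away at E11.5 and 26.7 kb at E13.5, and for Gpm6a 158 and 85.9 kb. Only Ntm of these had H3K27me3 within 5 kb, of 148 bp in Ebf2-EGFP- cells. The paper also names Cd200 as a CR-specific gene, a class it defines by RNA at each of the stages.

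Apoptosis genes had 3 of 43 (6.98%, CI 2.40 to 18.6), the adaptor Cradd (578 bp), the mitochondrial factor Aifm1 (361 bp) and Casp8 (185 bp). Cradd also had H3K27me3 at E13.5, 119 bp wide. Lysosome genes had 2 of 40, Gla (521 bp) and Lamp2 (220 bp), and interferon and antigen presentation genes 1 of 36, Mx1 (200 bp). Polycomb and H3K27 enzymes had 0 of 29, as did histone (67), Hox (39), forkhead (44), T-box (19) and Sox (19) genes. For histone genes 65 of 67 had H3K27ac at E15.5, all of which were acetylated at an earlier stage too.

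The 3 groups below the background were olfactory receptors (13 of 1135, 1.15%, CI 0.671 to 1.95), vomeronasal and trace amine receptors (6 of 344, 1.74%) and predicted genes named Rik or Gm (58 of 1921, 3.02%). Few of the receptor genes, and 545 of the 1921 predicted genes, had H3K27ac at E15.5 at all. The direction turned over among those that did. Of them, 52% of 25 olfactory receptors, 46.2% of 13 vomeronasal and trace amine receptors and 10.6% of 545 predicted genes were E15.5-only. Over all TSS with H3K27ac at E15.5 it was 7.82%. Of the 13 olfactory receptors 1, Olfr533, had its peak within 1 kb, and of the 6 vomeronasal and trace amine receptors 0. The median width was 217 bp for olfactory receptors, against 324 bp for all E15.5-only TSS, and 0 of the 13 had H3K27me3 in any list. Other families with any E15.5-only TSS had shares between 1% (cytochrome P450) and 6.61% (genes named Tmem), with solute carriers at 5.12%, collagens at 4.44%, keratins at 3.64%, protocadherins at 2.90%, claudins and connexins at 1.89%, Gpr and Adgr genes at 1.82% and chemokines and interleukins at 1.71%. The symbols of cytosolic ribosomal proteins gave 6 of 101, of which Rps3 (596 bp) and Rps28 (569 bp) are ribosomal proteins and the other symbols are paralogs or kinases.

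**Figure D3:**
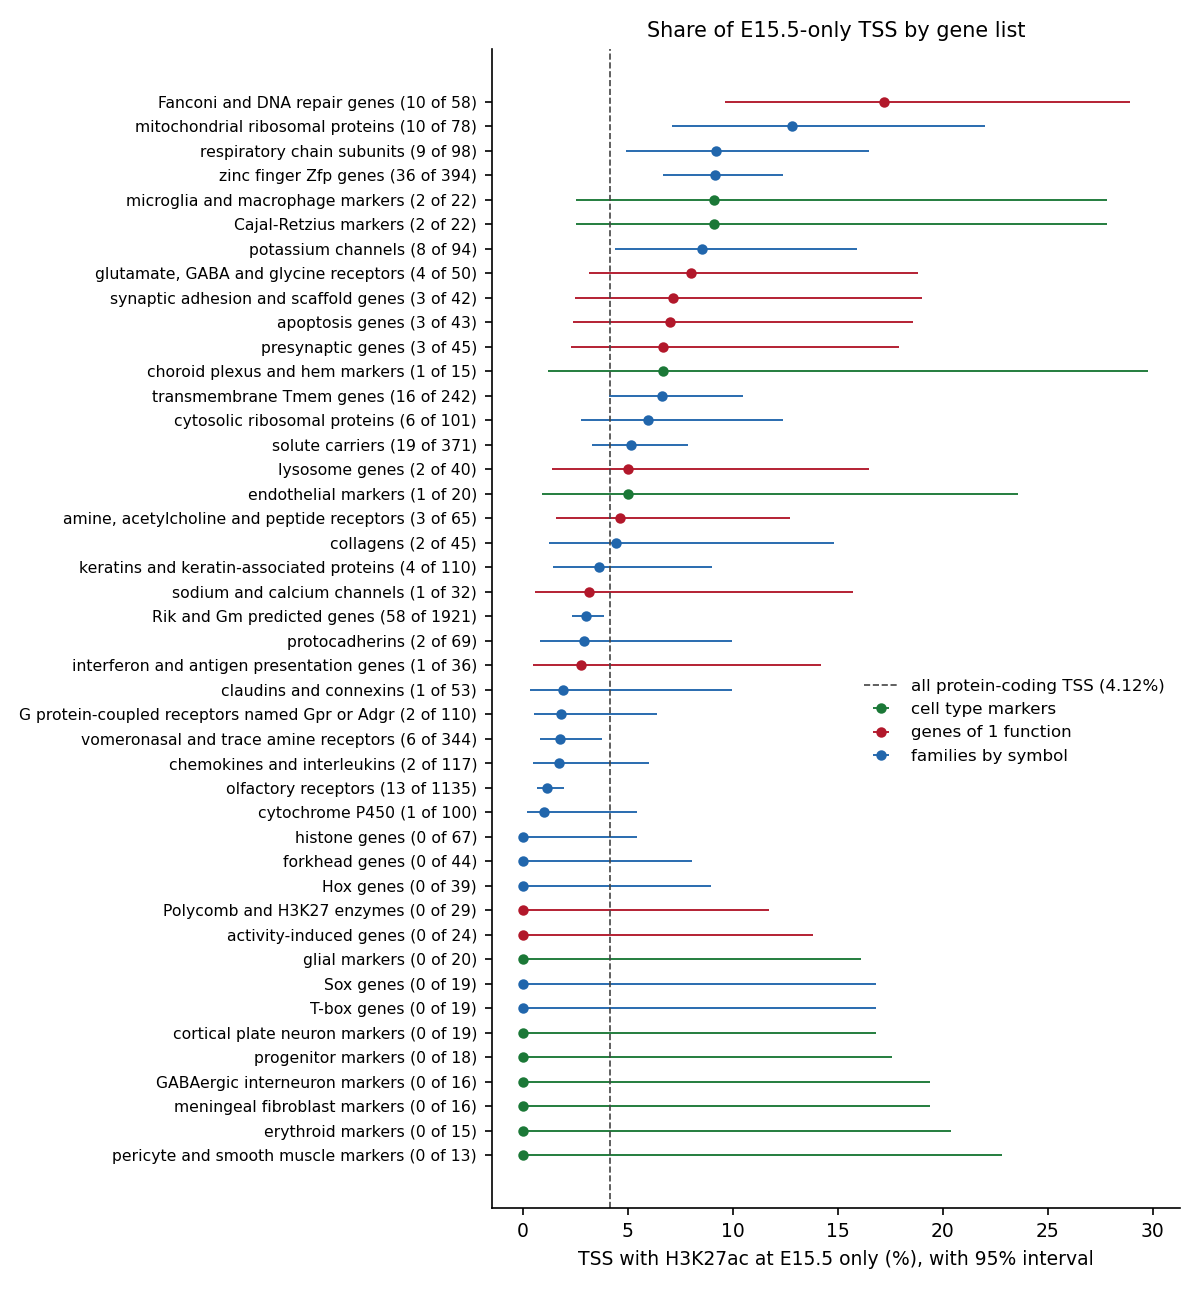
Share of each gene list or family (%) that was E15.5-only, with Wilson 95% intervals and with the number of E15.5-only TSS of all TSS in the group. The dashed line is the share over all protein-coding TSS (4.12%). DNA repair and mitochondrial ribosomal protein genes lie farthest to the right, and olfactory receptors lie to the left of the line.

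The X chromosome had a higher share of E15.5-only TSS than any autosome. On it 87 of 948 TSS were E15.5-only (9.18%, CI 7.5 to 11.2), against 810 of 20807 on autosomes (3.89%, CI 3.64 to 4.16), where the range was from 2.42% on chromosome 15 to 5.68% on chromosome 3. Among TSS with H3K27ac at E15.5, 29.7% of 293 on X were E15.5-only (CI 24.8 to 35.2), and 7.25% of 11174 on autosomes (CI 6.78 to 7.74). H3K27ac in Ebf2-EGFP+ cells was at 19.4%, 27.6% and 30.9% of X-linked TSS by stage and at 51.8%, 63.0% and 53.7% of autosomal TSS. On X the E13.5 and E15.5 intervals overlapped (24.9 to 30.6 and 28 to 33.9), whereas on autosomes the E13.5 list, the longest, marked more TSS (62.3 to 63.6 against 53 to 54.4). Sex was not given in the labels.

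**Figure D4:**
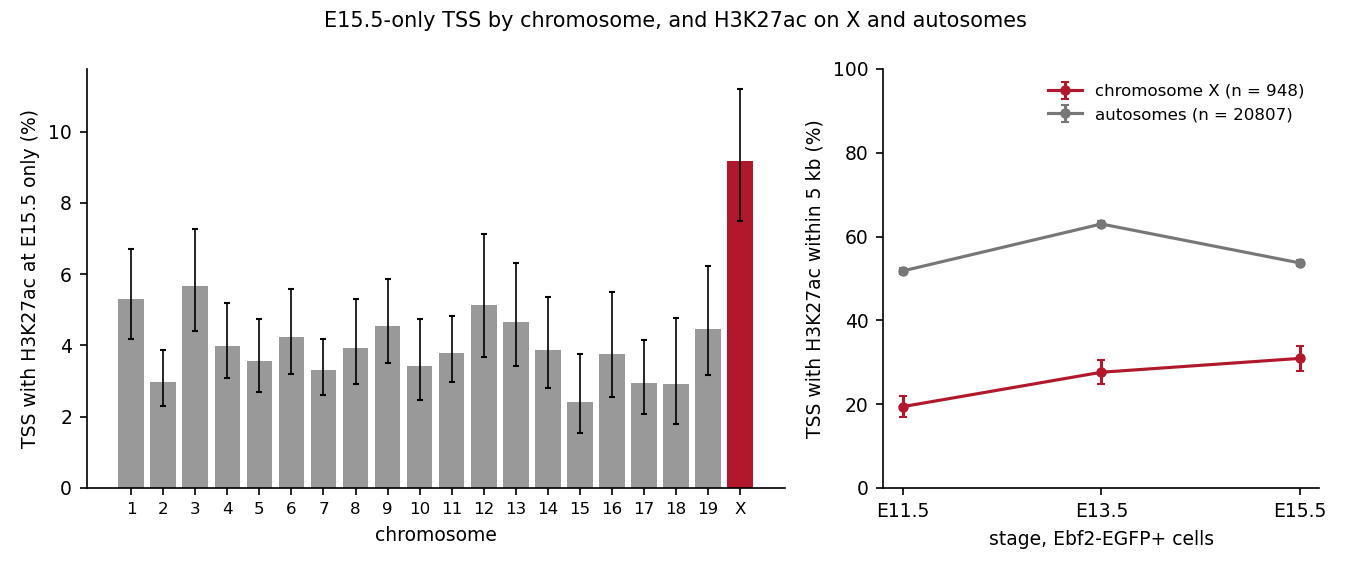
Left, share of TSS (%) that was E15.5-only on each chromosome, and right, share of TSS (%) with H3K27ac within 5 kb by stage on X (red) and autosomes (grey), with Wilson 95% intervals. The X chromosome stands at 9.18%, and 30.9% of its TSS had H3K27ac at E15.5, against 53.7% on autosomes.

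The X-linked peaks were not the narrower ones, with a median width of 424 bp against 316 bp for autosomal E15.5-only TSS. Chosen after their values were seen, the next named here behind Magee1, Rab33a and Armcx2 were G6pdx of the pentose phosphate pathway (828 bp), Ofd1 of the centriole and its neighbour Trappc2 (797 bp), and the H3K9 methyltransferase Suv39h1 (786 bp). Others were the ADP/ATP carrier Slc25a5 (763 bp), Tceal1 (725 bp), the RNA-binding gene Rbmx (696 bp), Pgk1 of glycolysis (586 bp), Fgf13 (556 bp) and the cohesin subunit Smc1a (514 bp). H3K27me3 was at 18 of the 87 in Ebf2-EGFP- cells (20.7%, upper limit of the CI 30.4), against 19.8% of all X-linked TSS and 36.0% of autosomal E15.5-only TSS. In Ebf2-EGFP+ cells it was at 0 of the 87 at each stage, which allows up to 4.23% by the interval, where all X-linked TSS had 0.527%, 2% and 0%.

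The last question was how far the earlier H3K27ac lay. The nearest E13.5 peak was at a median of 14.4 kb and the nearest E11.5 peak at 29.9 kb. TSS acetylated at no stage, which also lack a peak within 5 kb, had medians of 21.6 and 54.2 kb. Over all TSS, most of which have such a peak, they were 1.82 and 4.78 kb. Within 10 kb of the TSS, just beyond the limit of the definition, 311 TSS (34.7%) had an E13.5 peak and 140 (15.6%) an E11.5 peak. A peak of either stage lay over 5 kb and up to 100 kb away at 873 (97.3%), against 98.2% of all TSS. This share was near the background and depends on the density of peaks. At 455 TSS (50.7%) an E11.5 or E13.5 peak lay inside the gene, and at 259 (28.9%) within 5 kb of another annotated transcript start, so that other starts of those genes had been acetylated before. The shares within 10 kb, inside the gene and at other starts are not given for all TSS. Whether they are unusual here cannot be told.

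**Figure D5:**
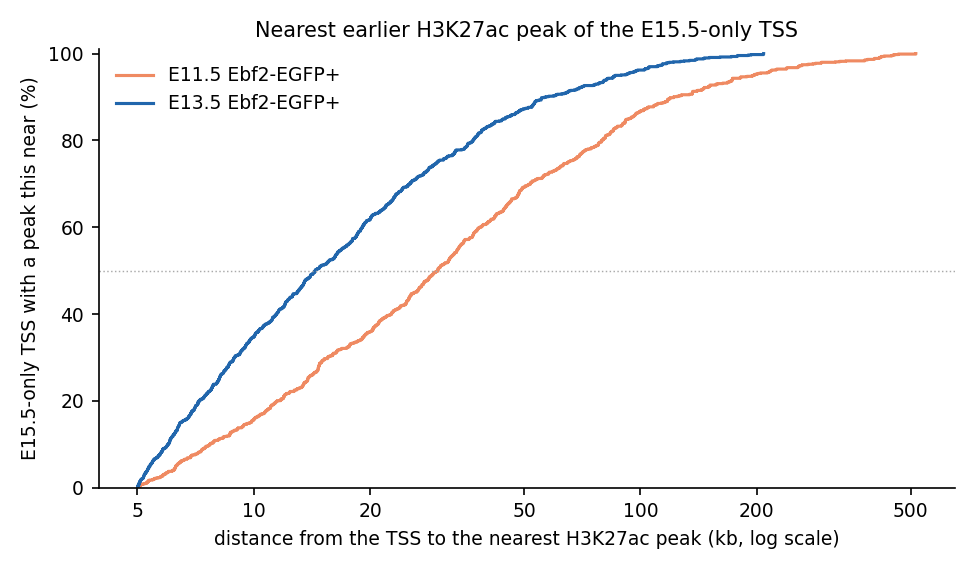
Cumulative share (%) of E15.5-only TSS against the distance to the nearest H3K27ac peak of Ebf2-EGFP+ cells at E11.5 and at E13.5 (kb, log scale). Both curves start at the limit of 5 kb, and they cross 50% at 14.4 kb for E13.5 and 29.9 kb for E11.5.

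The limit itself separated genes with like values. Just inside were Clu, a secreted chaperone, Tcstv3 and Zfp867, each with an E13.5 peak at 5012 bp and E15.5 peaks of 193, 283 and 371 bp. Just outside were Usp11, with an E11.5 peak at 5000 bp, Traf3ip1, with an E13.5 peak at 4985 bp, and Ccdc106, with an E11.5 peak at 4983 bp. The E15.5 peaks of these were 481, 188 and 868 bp. At the other end, 24 E15.5-only TSS had no earlier peak within 100 kb, and the farthest nearest E13.5 peak was at 208 kb.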

How the data were processed

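Per the labels and methods, the authors sorted Ebf2-EGFP+ and Ebf2-EGFP- cells, made ChIP with antibodies against H3K27ac and H3K27me3, aligned reads to mm10 with Bowtie 1.1.2 and called peaks with MACS. The MACS version, and whether replicates were pooled, are not given in the sources used here. The deposited lists hold the chromosome, start and end of each peak and a score that the authors set to 0 for every peak, so no peak height or p-value could be used. No deposited peak ended beyond its GRCm38 chromosome. Starts were read as counted from 0. Distances to protein-coding TSS of GENCODE M21 were computed in Python 3.11.15 with pandas 2.3.3 and the distance rule was tested on simulated peaks. Width stands in for strength only as a description.

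The members and lists were chosen with earlier results of these data known. Of the 23 samples, the 8 inputs have no peak list used here and entered no comparison. The TSS window, the TSS definition, peak width, list length and sets of genes were varied in 9 alternatives. Genes were named by a rule: the 20 with the widest E15.5 peak, 1 per peak; up to 20 with the widest H3K27me3 peak in Ebf2-EGFP+ cells and 10 in Ebf2-EGFP- cells; up to 8 per list; 3 on each side of the limit; and up to 5 with the most peaks. Predicted genes (Gm, Rik) were named only beside a gene that shares their peak. X-linked genes, family examples and others beyond it were chosen after their values were seen. Some genes that the rule names are not reported here.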

Additional observations from a re-analysis of the deposited data

How the results depend on the processing

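No paired analysis was possible because each group has 1 peak list, which also leaves no replicate to drop. Of 63 values under 9 alternatives 44 stayed within the interval, or within 1.5 times the number, and 19 moved. The cause was not tested. Some alternatives kept most of the 897 TSS by construction. Leaving out TSS with H3K27ac in Ebf2-EGFP- cells kept 889, and leaving out predicted genes 839. Chromosomes 1 to 19 alone kept 810, and counting shared peaks once kept 802. Values under these alternatives could hardly move and none did, so the 44 overstates how stable the results are. A window of 1 kb, for presence and absence, gave 1246 TSS, 725 of them among the 897, with H3K27me3 at 45.4% in Ebf2-EGFP- cells and at 4.49% and 6.58% in Ebf2-EGFP+ cells at E11.5 and E13.5 (all TSS 48.6%, 4.96% and 9.39%), earlier distal H3K27ac at 98.6% and a peak within 1 kb at 100% by construction. With no E11.5 or E13.5 peak within 10 kb, 547 TSS were left, with H3K27me3 at 2.74% at E13.5 and 0% at E15.5, distal H3K27ac at 95.6% and a peak within 1 kb at 84.1%. Counting any annotated start gave 76.3% with a peak within 1 kb. E15.5 peaks of at least 300 bp gave 486 TSS, with 40.9% for Ebf2-EGFP- H3K27me3 and 90.9% with a peak within 1 kb. With the E11.5 and E13.5 lists held to their widest 25793 peaks, the length of the E15.5 list, the set grew to 2288 TSS, of which the 897 are a part, with H3K27me3 at 43.6% in Ebf2-EGFP- cells and 3.98% and 6.77% in Ebf2-EGFP+ cells at E11.5 and E13.5, and distal H3K27ac at 98.5%. Depth is unknown, so absence of a peak means only that none was listed.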
